A study of Mus musculus with 16 samples.

Results

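Polyamines are small, positively charged metabolites that bind nucleic acids and are needed for growth and protein synthesis. Ornithine decarboxylase (Odc1) makes putrescine, S-adenosylmethionine decarboxylase (Amd1) makes the aminopropyl donor, and spermidine synthase (Srm) and spermine synthase (Sms) join them. Antizymes (Oaz1, Oaz2) bind Odc1 and send it to the proteasome, while the antizyme inhibitor (Azin1) takes antizyme out of action. Sat1, Paox and Smox turn spermine and spermidine back. Several of these mRNAs are known to be controlled in translation by polyamines themselves: Amd1 and Azin1 through upstream open reading frames (uORFs), and Oaz1 and Oaz2 through a ribosomal frameshift in their coding sequence.

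The 10 genes described here are Amd1, Odc1, Srm, Sms, Oaz1, Oaz2, Azin1, Sat1, Smox and Paox, out of 20622 genes in the total RNA tables. They were chosen by symbol for their function, except that Amd1 was also chosen by its own measured rise in footprints relative to mRNA. The values of Amd1 are therefore given as a description with no test, and the list was drawn up with earlier results of these data known.

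Ribosome-protected fragments (RPFs, the pieces of mRNA covered by ribosomes) and the total cytoplasmic RNA of the same lysates were sequenced from untreated KM cells, a line grown out of the lung tumours of 1 male mouse. The tumours carried the Rosa26 LSL-MYC/LSL-MYC alleles, switched on by Cre under the surfactant protein C promoter. KMNTC cells had received Cas9 and a non-targeting guide and KM4A2cr cells Cas9 and a guide to Eif4a2, an RNA helicase of translation, so every library shares the MYC alleles. There were 4 replicates of each line and kind, 16 libraries in all, made on different days. Pairs below join libraries of the same number, and whether a number marks the same day in both lines is not stated. KM4A2cr cells were a pool of 4 eIF4A2-negative clones, so the replicates measure the spread between days for these lines, not between clones or animals.

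Depth was 4512403 to 9621848 counts in the RPF libraries and 5350919 to 9312622 in the total RNA libraries, and replicate 4 was the shallowest of each set. Eif4a2 RPFs were 97.7 to 122 CPM (counts scaled to a common library size) in KMNTC replicates 1 to 3 and 389 CPM in replicate 4, against 51.0 to 88.4 CPM and 346 CPM in KM4A2cr, lower in the KM4A2cr library of all 4 pairs (log2 change -0.49 ± 0.15 SE, edgeR adjusted p = 0.0941). Replicate 4 thus stood apart in both lines, and calls that change when it is left out are given beside the gene. Without it, edgeR called 33.4% of genes in RPFs (14.3% as lower) and 29.8% in total RNA (12% as lower), far more than with all 4 replicates, so a call gained this way is common over all genes. The 5 epithelial markers summed to 4389 to 5614 CPM of total RNA in KMNTC and 5428 to 7494 CPM in KM4A2cr. In RPFs edgeR called 2 of these 5 as higher in KM4A2cr, against 6.6% of all genes. They were Epcam (log2 change 0.51, adjusted p = 0.0770) and Cdh1 (0.44, adjusted p = 0.0845). Alveolar type II markers summed to 77.9 to 140 CPM and 121 to 196 CPM, nearly all from Abca3. That gene was called higher in KM4A2cr in RPFs (0.54, edgeR adjusted p = 0.0501) and in total RNA (0.62, adjusted p = 0.0240). The defining markers Sftpc and Sftpb were at 0 in all 8 total RNA libraries. Fibroblast, leukocyte and endothelial lists each summed to under 10 CPM in every library. In bulk lysates, fewer cells of a type and less RNA per cell cannot be told apart.

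The sequence shown first is the short uORF that Amd1 is known for, since the results turn on this gene. It was found in the RefSeq windows of Amd1 (chr10:40302150-40302179, minus strand) and of its near-identical copy Amd2 (chr10:35711855-35711884, minus strand), both on GRCm38.p6, another build than the one behind the count tables. Capitals mark the uORF from its ATG to its stop codon, and the flanking bases are in lower case.
Amd1: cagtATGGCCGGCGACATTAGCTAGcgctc
Amd2: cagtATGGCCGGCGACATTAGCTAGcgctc
The uORF held 21 bases, which is 6 codons and a stop. It began at base 14 of the Amd1 transcript and at base 12 of the Amd2 transcript, and these letters were found in the first 50 transcribed bases of 2 of 32851 windows, those of Amd1 and Amd2. Of the 8 member genes with a window (Azin1 and Srm were not among them), only Amd1 held an ATG followed by an in-frame stop within its first 50 bases, against 11.7% of all windows. No match says only that these letters are not in these bases. The deposited RPF counts cover coding sequences alone, so footprints on the uORF itself were not analysed here.

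Of the 10 genes, Amd1, Azin1 and Oaz1 lay farthest above 0 in RPFs per total RNA in KM4A2cr cells. RPFs per total RNA is the ratio of RPF to total RNA CPM of a lysate, and its change was fitted over all 16 libraries. Of the 9 genes other than Amd1, 2 passed the test at an adjusted p of 0.1, Azin1 and Oaz1, both higher, while 2.91% of the 9989 genes tested passed in either direction and 1.87% passed as higher. In RPFs alone 1 of 9 passed (Azin1), against 10.3% of 10291 genes, and in total RNA 0 of 9 passed, against 6.13% of 10880 genes. At an unadjusted p under 0.05, 2 of the 9 passed in total RNA, Srm and Paox, both lower. Over all genes, 1995 of 10880 passed at that level in total RNA, in either direction. DESeq2 called 1 of the 9 in RPFs (Azin1), 0 in total RNA and 0 in RPFs per total RNA. In that last measure it gave no adjusted p for Oaz2, Sat1, Smox and Paox, so these could not be called. The median log2 change of these 9 genes was 0.13 in RPFs per total RNA, -0.18 in RPFs and -0.09 in total RNA, beside -0.02, -0.01 and 0.01 over all genes tested. The plot of RPF against total RNA change sets the 10 genes among all others.

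**Figure D1:**
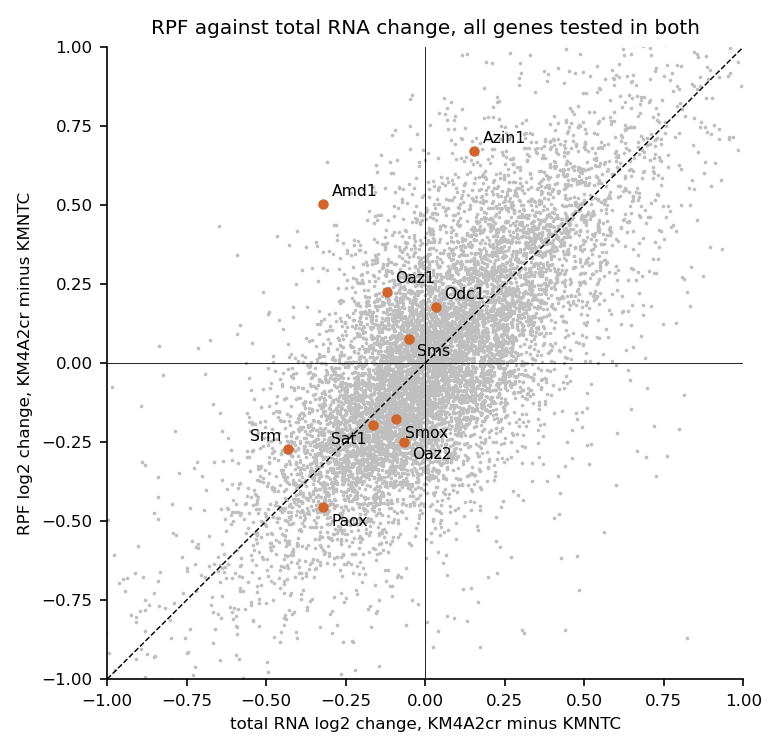
Fitted log2 change of RPFs (vertical axis) against that of total RNA (horizontal axis), KM4A2cr minus KMNTC, for 9989 genes tested in both (grey; 228 lie outside the axes) and the 10 polyamine genes (orange, named). On the dashed line both changes are equal. Amd1 sits above 0 in RPFs (0.50) and below 0 in total RNA (-0.32), and Azin1 is highest of the 10 in RPFs (0.67).

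Amd1 catalyses the step that commits S-adenosylmethionine to polyamine synthesis. Its RPFs were 50.7, 47.4, 58.1 and 34.0 CPM in KMNTC replicates 1 to 4 and 67.3, 79.2, 77.2 and 46.3 CPM in KM4A2cr. Its total RNA was 375, 218, 283 and 144 CPM in KMNTC and 269, 210, 240 and 100 CPM in KM4A2cr. In each of the 4 pairs the KM4A2cr library was thus higher in RPFs and lower in total RNA, although both sets of values overlapped between the lines, with replicate 4 lowest in each. The ratio of RPF to total RNA CPM was 0.135 to 0.237 in KMNTC and 0.251 to 0.461 in KM4A2cr, and these ranges did not overlap. Amd1 was chosen by its rise in this ratio, so the separation follows in part from that choice. The KM4A2cr lysate had 1.85, 1.74, 1.57 and 1.95 times the ratio of its KMNTC partner in pairs 1 to 4. The fitted log2 changes were 0.50 ± 0.13 SE in RPFs, -0.32 ± 0.13 SE in total RNA and 0.81 ± 0.10 SE in RPFs per total RNA, a fold of 1.76. Leaving out each replicate in turn left the last value between 0.79 and 0.90.

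By the size of that log2 change Amd1 was number 24 of 9989 genes. Just above it stood Arhgap44 (0.82 ± 0.27 SE), Slc35a4 (0.82 ± 0.30 SE) and Ripply3 (0.81 ± 0.54 SE), and below it 9330182L06Rik (0.80 ± 0.41 SE) and Klf4 (0.79 ± 0.15 SE). The 5 genes whose RPF to total RNA log2 ratio followed that of Amd1 most closely over the 8 lysates were Shoc2 (Pearson r = 0.96), Tecpr1 (0.94), Zbtb2, Snf8 and Dnajc19 (0.93 each), of 6819 genes compared. Among the other members r was 0.76 for Oaz1, 0.01 for Azin1 and -0.27 for Odc1. These r are descriptions over 8 lysates that also differ by day, library depth and the contrast itself.

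Amd1 counts have a known uncertainty, since reads from Amd1 and Amd2 can be hard to tell apart. Total RNA counts of Amd1 were spread over 2 isoforms of 3204 bases at 49.2% and 50.8% in KMNTC, and Amd2 held 30.8% of the Amd1 and Amd2 counts in KMNTC and 30.04% in KM4A2cr. No transcript of Amd2 stood in the RPF tables. Amd2 total RNA was 113 ± 41.1 CPM (SD, n = 4) in KMNTC and 87.7 ± 32.5 CPM in KM4A2cr, lower in 4 of 4 pairs, with a log2 change of -0.39 ± 0.13 SE that did not pass the test (adjusted p = 0.146). With the counts of both genes summed, an alternative chosen after seeing the data, the log2 change was -0.34 in total RNA and 0.83 in RPFs per total RNA.

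Azin1, the antizyme inhibitor, resembles Odc1 without its activity and frees Odc1 from antizyme. Its RPFs were 9.23, 8.93, 10.8 and 8.81 CPM in KMNTC replicates 1 to 4 and 15.6, 13.0, 17.0 and 14.8 CPM in KM4A2cr. Every KM4A2cr library lay above every KMNTC library, although the counts behind these values were only 42 to 129 per library. The share of all genes that separate in this way was not computed. Azin1 RPFs rose by 0.67 ± 0.14 SE on the log2 scale (adjusted p = 0.0348), a fold of 1.59. Its total RNA was 75.0, 97.7, 86.1 and 108 CPM in KMNTC and 65.2, 114, 100 and 140 CPM in KM4A2cr, so that the lines overlapped and pair 1 went the other way (log2 change 0.15 ± 0.13 SE, adjusted p = 0.585). RPFs per total RNA rose by 0.54 ± 0.14 SE (adjusted p = 0.0696), with KM4A2cr higher in 4 of 4 pairs by 1.94, 1.25, 1.35 and 1.303 times. The call in RPFs per total RNA was lost under 7 of 14 alternatives, among them DESeq2 (adjusted p = 0.108) and leaving out replicate 1, 2 or 3, with log2 changes from 0.38 to 0.62 and adjusted p from 0.0194 to 1.00 over all 14. In RPFs it was lost under 4 of 11 alternatives, with adjusted p from 0.00788 to 0.998.

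Oaz1 is the main antizyme, which lowers Odc1 protein and polyamine uptake when polyamines are plentiful. Its RPFs were 66.5, 49.3, 67.9 and 68.4 CPM in KMNTC and 63.4, 60.9, 69.6 and 107 CPM in KM4A2cr. The lines overlapped, pair 1 was lower and replicate 4 of KM4A2cr was the high value (log2 change 0.23 ± 0.15 SE, adjusted p = 0.398). Its total RNA was 141, 116, 149 and 111 CPM in KMNTC and 114, 104, 130 and 126 CPM in KM4A2cr, lower in 3 of 4 pairs (log2 change -0.12 ± 0.13 SE, adjusted p = 0.670), and it passed as lower without replicate 4 (-0.23, adjusted p = 0.0893). Relative to total RNA, Oaz1 RPFs rose by 0.34 ± 0.10 SE on the log2 scale (adjusted p = 0.0893), a fold of 1.27, and the pairs gave 1.177, 1.38, 1.175 and 1.38 times. Every pair went the same way and the 2 lines still overlapped, because the KMNTC lysate of replicate 4 had the ratio 0.619 and KM4A2cr replicates 1 to 3 had 0.536 to 0.586. The call was lost under 8 of 14 alternatives, among them DESeq2 (adjusted p = 0.114) and leaving out replicate 1, 2 or 3. Over all 14 the log2 changes ran from 0.31 to 0.41 and adjusted p from 0.0527 to 1.00. RPF counts were summed along the coding sequence, its first and last codons left out, so ribosomes before and after the frameshift were not separated.

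**Figure D2:**
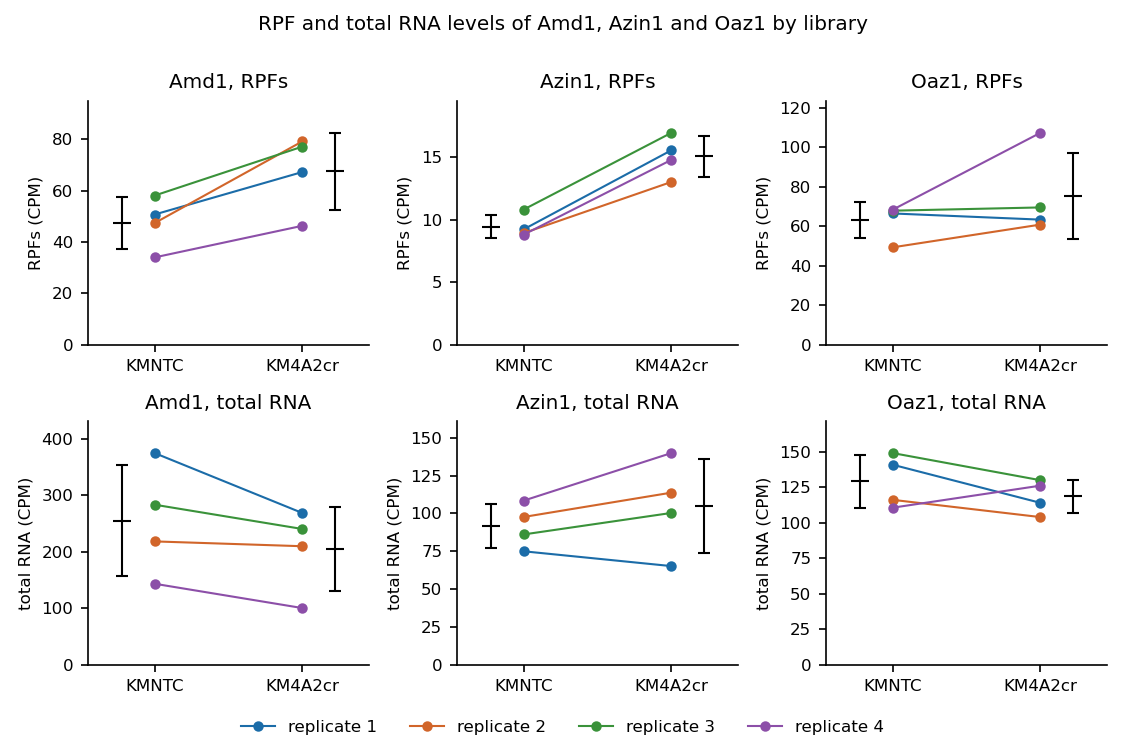
RPF level (top) and total RNA level (bottom) in CPM of Amd1, Azin1 and Oaz1 in each of the 16 libraries, with a line joining KMNTC and KM4A2cr of the same replicate and black bars for mean ± SD (n = 4). Azin1 RPFs separate the lines (8.81 to 10.8 against 13.0 to 17.0 CPM), while Amd1 is higher in RPFs and lower in total RNA within every pair. The shares of all genes that do either were not computed.

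Oaz2, the other antizyme, did not pass the test in any measure. Its RPFs were 12.0 ± 2.75 CPM (SD, n = 4) in KMNTC and 11.0 ± 5.50 CPM in KM4A2cr, and the RPF to total RNA ratio was lower in pairs 1 and 3 and higher in pairs 2 and 4, with 0.68, 1.13, 0.52 and 1.52 times the KMNTC value. The log2 change in RPFs per total RNA was -0.17 ± 0.19 SE (adjusted p = 0.746). Without replicate 4 the RPFs of Oaz2 passed the test as lower (-0.52, adjusted p = 0.0555). With 671 RPF counts over all 8 libraries, Oaz2 had the fewest of the 10 genes.

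Odc1, the first enzyme of the pathway and the target of antizyme, did not pass the test in any measure. Its RPFs were 129, 87.3, 114 and 59.2 CPM in KMNTC and 147, 79.3, 125 and 86.4 CPM in KM4A2cr (log2 change 0.18 ± 0.14 SE, adjusted p = 0.490). The values of the lines overlapped, and the days within a line differed by more than the lines did. Its total RNA was 573, 642, 670 and 301 CPM in KMNTC and 453, 542, 681 and 490 CPM in KM4A2cr, lower in pairs 1 and 2 and higher in pairs 3 and 4 (0.03 ± 0.19 SE, adjusted p = 0.956). The RPF to total RNA ratio of KM4A2cr was 1.44, 1.08, 1.08 and 0.90 times that of KMNTC (0.17 ± 0.11 SE, adjusted p = 0.515).

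Srm, which makes spermidine, did not pass the test in any measure over all 4 pairs. Its total RNA was 67.6, 33.5, 39.5 and 17.4 CPM in KMNTC and 51.0, 23.3, 35.6 and 10.4 CPM in KM4A2cr. All 4 pairs were lower while the lines overlapped widely, since the days differed more than the lines, and the change of -0.43 ± 0.14 SE missed the threshold (adjusted p = 0.124). It passed under 3 of 13 alternatives, one of them without replicate 4 (-0.37, adjusted p = 0.0220). The others were no filter on low counts (adjusted p = 0.0602) and library size only (adjusted p = 0.0531). Library size only also moved the median gene to -0.15 in total RNA. Srm RPFs were also lower in 4 of 4 pairs (-0.27 ± 0.14 SE, adjusted p = 0.264), and RPFs per total RNA did not pass (0.17 ± 0.12 SE, adjusted p = 0.583). Sms, which makes spermine, gave 46.9 ± 3.60 CPM of RPFs in KMNTC and 50.3 ± 10.3 CPM in KM4A2cr (SD, n = 4), with log2 changes of 0.08 ± 0.14 SE in RPFs (adjusted p = 0.784), -0.05 ± 0.15 SE in total RNA (adjusted p = 0.898) and 0.13 ± 0.11 SE in RPFs per total RNA (adjusted p = 0.633).

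**Figure D3:**
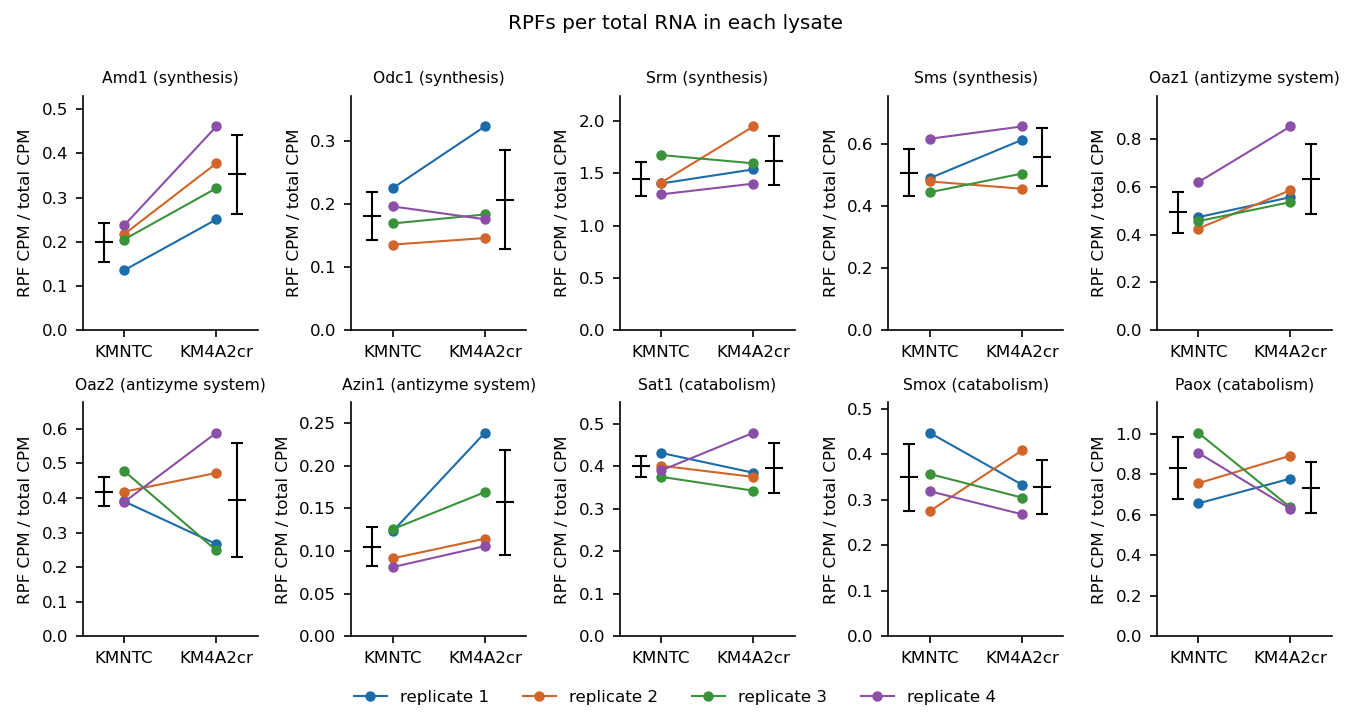
Ratio of RPF CPM to total RNA CPM in each lysate for the 10 genes, with a line joining KMNTC and KM4A2cr of the same replicate and black bars for mean ± SD (n = 4). Heights are not comparable between genes. Amd1, Oaz1 and Azin1 go up in 4 of 4 pairs, and Amd1 is the gene whose lines do not overlap. Amd1 was chosen by its rise in this ratio, and the shares of all genes that do either were not computed.

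None of the 3 genes of breakdown passed the test in any measure over all 4 pairs. Sat1, the acetyltransferase that starts the breakdown of spermine and spermidine, had 18.7, 17.3, 17.9 and 22.0 CPM of RPFs in KMNTC and 10.7, 13.8, 11.9 and 42.0 CPM in KM4A2cr. Replicates 1 to 3 of KM4A2cr lay below every KMNTC library and replicate 4 lay above them all. The total RNA did the same, with 43.5, 43.1, 47.9 and 56.5 CPM in KMNTC and 27.96, 36.8, 34.8 and 87.8 CPM in KM4A2cr. Over 4 pairs neither passed (RPFs -0.20 ± 0.26 SE, adjusted p = 0.689, and total RNA -0.17 ± 0.19 SE, adjusted p = 0.703). Without replicate 4 Sat1 fell by 0.57 in RPFs (adjusted p = 0.0165) and by 0.44 in total RNA (adjusted p = 0.00817) on the log2 scale, so that this 1 pair decides both calls. In RPFs per total RNA the log2 change was -0.02 ± 0.13 SE (adjusted p = 0.969).

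Paox, which oxidises acetylated polyamines, had 26.2 ± 6.92 CPM of RPFs in KMNTC and 19.4 ± 8.03 CPM in KM4A2cr (SD, n = 4). It was lower in 4 of 4 pairs of RPFs (-0.46 ± 0.16 SE, adjusted p = 0.130) and in 3 of 4 pairs of total RNA (-0.32 ± 0.14 SE, adjusted p = 0.247), and did not pass in either. Both passed without replicate 4 (RPFs -0.34, adjusted p = 0.0838, and total RNA -0.31, adjusted p = 0.0801). Smox, which oxidises spermine directly, had 16.4 ± 1.38 CPM of RPFs in KMNTC and 14.9 ± 3.75 CPM in KM4A2cr, with a log2 change of -0.18 ± 0.17 SE (adjusted p = 0.584). Its total RNA was lower in 3 of 4 pairs (-0.09 ± 0.15 SE, adjusted p = 0.807) and passed as lower without replicate 4 (-0.28, adjusted p = 0.0842). Smox lies on chromosome 2, where 833 genes had a median RPF change of -0.21, and the part of the whole chromosome in its value was not tested. The plot of fitted changes sets the roles side by side.

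**Figure D4:**
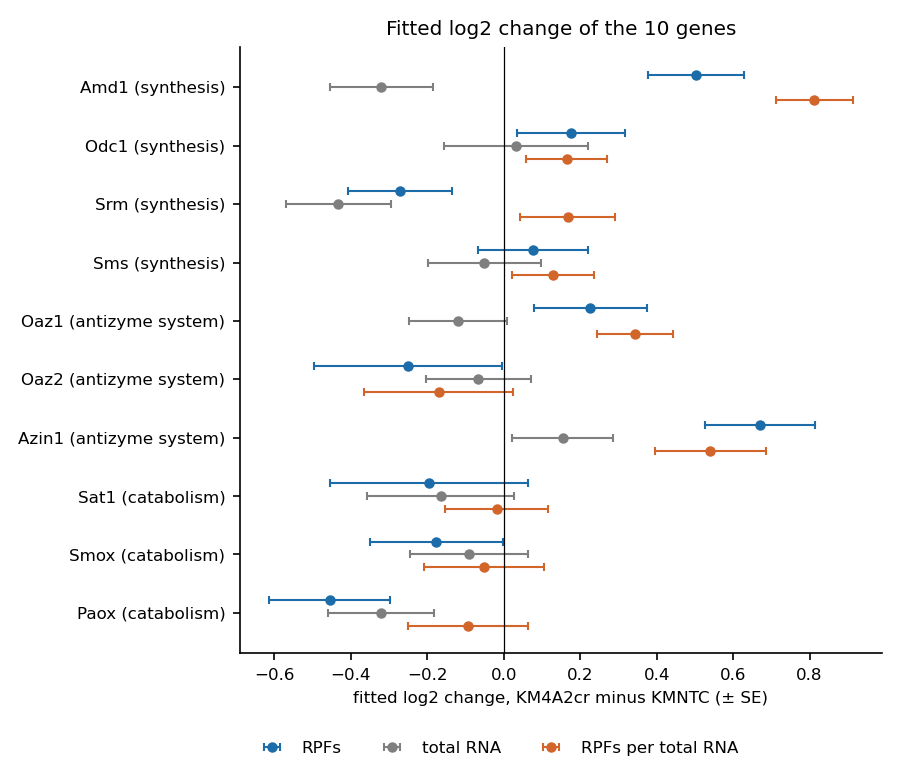
Fitted log2 change of the 10 genes, KM4A2cr minus KMNTC, in RPFs (blue), total RNA (grey) and RPFs per total RNA (orange), with bars for the standard error. Values in RPFs per total RNA run from -0.17 (Oaz2) to 0.81 (Amd1), with Azin1 (0.54) and Oaz1 (0.34) next below Amd1.

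Levels of different genes can be compared only per length, as TPM of total RNA (counts scaled for transcript length and library size). In KMNTC, Odc1 was first with 485 ± 193 TPM (SD, n = 4), followed by Oaz1 (293 ± 59.8), Amd1 (150 ± 62.0), Sat1 (96.4 ± 6.70), Srm (60.8 ± 33.1), Smox (54.1 ± 11.4), Sms (46.9 ± 12.9), Oaz2 (41.0 ± 13.5), Azin1 (36.8 ± 7.00) and Paox (27.0 ± 12.3). The ranges over replicates of every 2 neighbours in this order overlapped. Within replicates, Odc1 lay above Oaz1, Oaz1 above Amd1 and Azin1 above Paox in 4 of 4, and the other steps held in 2 or 3 of 4. The lowest of the 4 Odc1 values (212 TPM) still lay above the highest of Sat1 (105 TPM). Replicate 4 was the lowest of the 4 for Odc1, Oaz1, Amd1, Srm, Sms, Oaz2 and Paox.

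**Figure D5:**
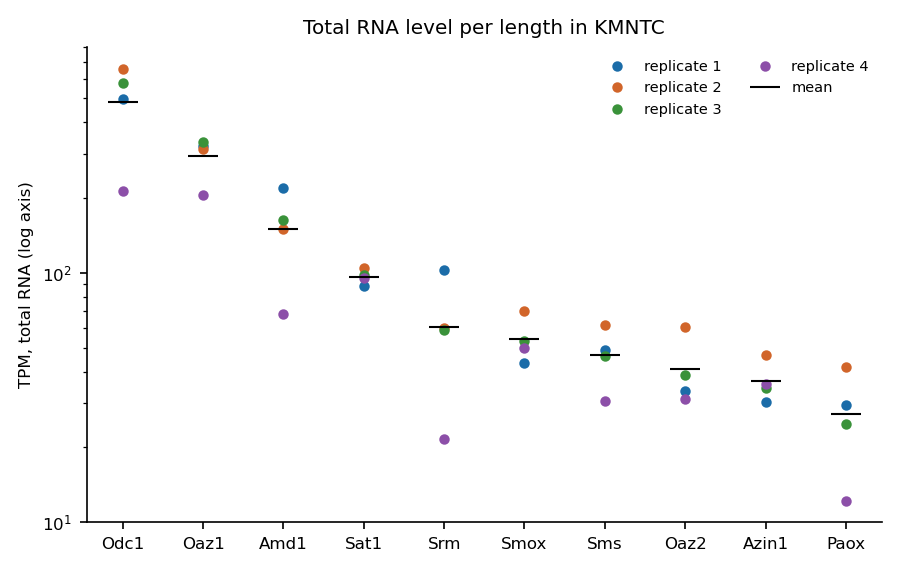
Total RNA level in TPM (log axis) of the 10 genes in the 4 KMNTC replicates (coloured points), with black bars for the mean, ordered by mean. Odc1 spans 212 to 658 TPM and Paox, the lowest, 12.2 to 41.8 TPM, and the ranges of neighbours overlap throughout.

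The TPM order depends on isoforms for several genes. RPFs were aligned to 1 transcript of each gene, and for Smox that transcript was 1 of 9 isoforms with 7.03 TPM in KMNTC against 54.1 TPM for the gene. For Amd1 the values were 75.9 and 150 TPM, for Azin1 19.0 and 36.8 TPM and for Sat1 47.2 and 96.4 TPM. Odc1, Srm and Sms had a single isoform. Counts of near-identical isoforms split almost evenly, so shares of isoforms are uncertain.

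Outside the 10 genes, the polyamine transport and enzyme list held further changes. Of its 18 genes 17 were in the files, and 7 were tested in total RNA and 6 in each of the other measures. In RPFs per total RNA 2 of 6 passed, both higher, against 2.91% of all genes in either direction and 1.87% as higher. They were the lysosomal polyamine exporter Atp13a2 (0.85 ± 0.20 SE, adjusted p = 0.0369) and its relative Atp13a3, a polyamine transporter (0.37 ± 0.09 SE, adjusted p = 0.0544). Each was higher in 4 of 4 pairs. With DESeq2 1 of 6 passed, Atp13a3. Atp13a2 RPFs rose from 6.61 ± 1.92 to 13.2 ± 5.91 CPM (SD, n = 4; adjusted p = 0.0180), while its total RNA did not pass (log2 change 0.13 ± 0.17 SE, adjusted p = 0.729). Gpc1, a heparan sulfate proteoglycan linked to polyamine uptake, rose in RPFs (0.94 ± 0.13 SE, adjusted p = 0.00789) and in total RNA (0.79 ± 0.14 SE, adjusted p = 0.0142), and not in their ratio (0.15 ± 0.10 SE, adjusted p = 0.546). Slc18b1, a vesicular polyamine transporter, rose in total RNA (1.04 ± 0.18 SE, adjusted p = 0.0123). Its level there was low, 7.71 ± 3.75 CPM in KMNTC and 15.9 ± 8.72 CPM in KM4A2cr (SD, n = 4). In RPFs 2 of 6 passed (Atp13a2 and Gpc1), against 10.3% of all genes. In total RNA 2 of 7 passed (Gpc1 and Slc18b1), against 6.13%. The median log2 change of the tested genes was 0.61 in RPFs, 0.13 in total RNA and 0.06 in RPFs per total RNA. Over all genes these medians were -0.01, 0.01 and -0.02. Whether the called genes differ from other membrane protein genes was not tested. Their calls without single replicates are not given here.

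The lists around synthesis had 0 genes called in any measure by edgeR or DESeq2, which for lists this short is near the shares called over all genes (10.3%, 6.13% and 2.91%). They were the methionine cycle and methylthioadenosine salvage (9 of 10 genes tested in each measure, median RPF change -0.17), ornithine and arginine supply (5 of 9 tested in RPFs, median -0.24) and the hypusine pathway that uses spermidine to modify Eif5a (3 of 4 tested in RPFs, median -0.21). At an unadjusted p under 0.05, Arg2 was higher in RPFs, Asl and Eif5a lower in RPFs, Apip lower in total RNA, and Mat2a and Oat lower in RPFs per total RNA. Over all genes 2411 of 10291 passed at that level in RPFs, 1995 of 10880 in total RNA and 1410 of 9989 in their ratio. Arg2 was near the floor, with mean RPFs of 1.95 CPM in KMNTC and 4.35 CPM in KM4A2cr. Other mRNAs known for regulatory uORFs, such as Atf4, Ppp1r15b and Ifrd1, also had 0 called by edgeR or DESeq2. In this list, at an unadjusted p under 0.05, Ddit3 was higher in total RNA and Ppp1r15b lower in RPFs per total RNA. The median change of the list in RPFs per total RNA was -0.06, beside -0.02 over all genes tested. Of its 9 genes tested there, 1 lay above 0.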

How the data were processed

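The RPF files deposited by the authors hold counts per coding sequence (1 transcript per gene, first and last codons left out), made with Cutadapt 1.18, BBmap and UMI-tools 1.0.1 against a filtered GENCODE transcriptome. For total RNA they deposited RSEM 1.3.3 expected counts and TPM per isoform after Bowtie2 2.3.5.1 alignment. Duplicates were collapsed by molecular identifiers.

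Expected counts were summed per gene and rounded. Genes passing filterByExpr (minimum count 10) were TMM-normalised and tested with edgeR 4.0.16 quasi-likelihood in R 4.3.3, with terms for line and replicate number. P-values were adjusted by Benjamini-Hochberg over every gene tested, at a threshold of 0.1. RPFs per total RNA was the interaction of line and kind of library in 1 model over 16 libraries, with terms for lysate and for replicate within kind. CPM are scaled by TMM, and pair values in log2 used a prior count of 2. SE is the absolute log2 change divided by the square root of F. The 2 kinds of library were normalised apart, so a change of all footprints or all mRNA leaves no trace. Scripts were tested on simulated data.

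The series' design text says that replicates were plated and collected on separate days. Whether a number marks the same day in both lines is not stated. Deviations of same-numbered libraries from their line means correlated across genes at 0.575 to 0.782 in RPFs and 0.611 to 0.756 in total RNA. Replicate 4 stood apart in both lines and is part of these means, so the other replicates can correlate whatever their numbers. Libraries of different numbers were not compared, so these values do not settle whether the numbers match. The replicate block was used in the main fit. No 2 libraries held identical counts. Libraries of a line may share a culture history, and p-values measure the spread between these days.

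The members and lists were chosen with earlier results of these data known. Named genes are the 10 members, Eif4a2, Amd2, list genes called in any fit, the 3 genes on either side of Amd1 by log2 change and the 5 with the highest Pearson r to it (mean CPM of at least 10 in both kinds). One of the genes beside Amd1 and part of the genotype are not reported here. Footprint levels per coding length were not computed, since coding lengths were not used here. Uncalled list genes are named only as examples. Genes to which DESeq2 gave no adjusted p count as not called, for members and lists alike. Alternatives were no block, DESeq2 1.42.0, other scalings and filters, a threshold of 0.05, single isoforms, limma 3.58.1 on log2 ratios, leaving out each replicate and, added after seeing the data, summing Amd1 and Amd2.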

Additional observations from a re-analysis of the deposited data

Results flagged for a closer look

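The 60 sets of 4 libraries (10 genes, 3 measures, 2 lines) share lysates and are not independent. Chance flags about 1 in 20 of independent sets. Of the 60, 6 held a value far from the other 3. Of these, 5 were the highest value of KM4A2cr replicate 4: Sat1 RPFs (42.0 CPM, the others 10.7 to 13.8), Sat1 total RNA (87.8 CPM, the others 27.96 to 36.8), Sms RPFs (65.7 CPM, the others 44.4 to 45.9), Smox total RNA (73.3 CPM, the others 35.2 to 39.6) and the Oaz1 ratio of RPFs to total RNA (0.852, the others 0.536 to 0.586). The other was the lowest value of KMNTC replicate 2, Oaz1 RPFs (49.3 CPM, the others 66.5 to 68.4).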

How the results depend on the processing

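The Amd1 log2 changes kept their direction under every alternative run and moved by less than the spread between pairs, from 0.79 to 0.90 in RPFs per total RNA. The number of genes called in RPFs, total RNA and RPFs per total RNA (1062, 667 and 291) moved far more. Without the replicate block, that is with unpaired libraries, edgeR called 0, 0 and 0 genes (365, 362 and 22 at an unadjusted p under 0.05), and the paired fit is the one reported. Library size scaling alone gave 1619, 1130 and 132 genes (482 higher and 1137 lower in RPFs, against 679 and 383; 262 and 868 in total RNA, against 473 and 194) and moved the median gene to -0.14 in RPFs and -0.15 in total RNA on the log2 scale. With the threshold of 0.05 the counts were 438, 321 and 76. With no filter on low counts 1268 were called in total RNA and 475 in RPFs per total RNA. DESeq2 called 139 and limma on log2 ratios 0 in RPFs per total RNA (1181 at an unadjusted p under 0.05). Leaving out 1 replicate gave 32 (without replicate 3) to 3469 genes (without replicate 4) in RPFs, 63 to 3260 in total RNA (same replicates) and 10 (without replicate 1) to 673 (without replicate 4) in RPFs per total RNA.

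Directions reversed in 24 of 377 settings of the members, all for values that did not pass the test. Without the replicate block Odc1 total RNA was -0.013, Sat1 RPFs 0.026 and Sat1 RPFs per total RNA 0.053. With library size only Odc1 total RNA was -0.12, Azin1 total RNA -0.0033, Sms RPFs -0.054 and Sat1 RPFs per total RNA 0.011, and with upper-quartile factors Odc1 total RNA was -0.0074. On the RPF isoform only Smox total RNA was 0.0085 and Paox RPFs per total RNA 0.085. Leaving out each replicate gave ranges across 0 in total RNA of -0.19 to 0.16 for Odc1, -0.14 to 0.021 for Oaz2, -0.20 to 0.080 for Sms and -0.28 to 0.020 for Smox. They were -0.056 to 0.16 for Sms RPFs and -0.57 to 0.0086 for Sat1 RPFs. In RPFs per total RNA they were -0.35 to 0.12 for Oaz2, -0.12 to 0.043 for Sat1, -0.30 to 0.073 for Smox and -0.27 to 0.15 for Paox. The causes of these moves were not tested. The call of Azin1 rests on 42 to 129 RPF counts per library.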
